A study of Drosophila melanogaster with 18 samples.

Results

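The regions described here lie at the centromere-proximal ends of 4 fly chromosome arms and on chromosome 4. They were picked by a rule on position, on the dm3 build, from 3 deposited lists of regions with signal for the S9.6 antibody. The rule was set with earlier results of these data known. A region was a member if its midpoint lay at or beyond 21.6 Mb on 2L, 22.5 Mb on 3L or 21.5 Mb on X, at or below 1 Mb on 3R, or anywhere on chromosome 4. The rule takes in no end of 2R. It gave 424 members of 17192 listed regions, of which 64 of 2980 were in the list for hrp36 cells, 111 of 7735 in the list for hrp48 cells and 249 of 6477 in the list for LacZ cells. The lists describe the same libraries, so 1 place found in several of them is 1 measurement given more than once. Merged by overlap, the 424 members made up 233 separate places, 54 of them in all 3 lists.

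The study measured R-loops by DRIP-seq in S2 cells, a cultured Drosophila line, after knockdown of hrp36 or hrp48, 2 hnRNP proteins that bind RNA. The 18 libraries fell into 9 groups of 2, made up of RNH+, RNH- and input material from cells labelled hrp36, hrp48 and LacZ. LacZ, a bacterial gene, is a common knockdown control in fly cells. The labels also call the cell type a primary culture of late stage, which was left as it stands. The knockdown agent, its duration and the level of knockdown were not analysed here. RNH+ and RNH- are read as libraries with and without RNase H, with the column ending Tr taken as RNH+ and Un as RNH-. It was not given in the sources used here whether the 2 libraries of a group came from separate cultures, so the p-values measure the spread between libraries only.

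An R-loop is a stretch of RNA paired to DNA with the other DNA strand displaced. The S9.6 antibody binds RNA-DNA hybrids, and RNase H cuts the RNA in them, so signal that falls after RNase H is the usual mark of a hybrid. Toward the centromere, the arms of the fly pass from gene-rich DNA into pericentromeric heterochromatin, which is packed with HP1a and methylated histone H3 and is dense in copies of transposons. It also holds piRNA clusters, such as flamenco at the base of X, whose transcripts guide transposon silencing. Chromosome 4 is small and largely heterochromatic, yet many of its genes are expressed.

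Each list came with 6 values per region, the authors' means of log2 normalised count in RNH+ and RNH- libraries of the 3 cell groups. It also came with the authors' DESeq2 log2 fold change of RNH+ over RNH- in the list's own cells. The regions of a list are named for the RNH- libraries of its own cells, and such a choice favours regions with high RNH- signal in those cells. How multi-mapping reads were handled was not given in the sources used here, and members may share reads with other copies of a repeat. The depth of each library is unknown from these tables. No dm3 sequence or gene annotation was used, so regions are named by position only.

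Listed regions lay closer together at the arm ends than along the rest of the same arms in each list. In the LacZ list the ends of 2L, 3L, 3R and X held 47.2, 47.0, 38.1 and 45.9 regions per Mb, against 32.7, 31.4, 27.8 and 26.0 along the rest of each arm. The contrast was wider in the hrp36 list for X, with 18.5 regions per Mb at its end and 4.35 elsewhere, and narrow there for 2L, with 7.07 at its end and 6.68 elsewhere. In the hrp48 list the ends of 2L, 3L and 3R held 17.4, 22.5 and 17.3 regions per Mb, against 11.2, 10.1 and 6.68 along the rest, and the end of X was the densest of the 4. Chromosome 4 had 4.99 regions per Mb in the hrp48 list and 13.3 in the LacZ list, fewer than each end, and 7.56 in the hrp36 list, fewer than each end but that of 2L. Each density was taken over the span from the first to the last listed region, and that span differed between lists. On chromosome 4 it was 0.661 Mb in the hrp36 list and 1.20 Mb in the LacZ list. The place of chromosome 4 above the end of 2L in the hrp36 list thus rests on a short span. These densities describe the lists and were not tested.

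Members recurred between lists more often than other regions of the same arms, a difference that was not tested. Overlap was counted from 1 shared base, and members were also longer. Their median length was 1057, 735 and 529 bases in the hrp36, hrp48 and LacZ lists, against 900, 435 and 434 elsewhere on the 4 arms. Length and position were not separated here. Of the 64 hrp36 members, 60 (93.8%) overlapped a LacZ region and 56 (87.5%) an hrp48 region, against 86.6% and 72.4% of the regions elsewhere on the 4 arms. Of the 111 hrp48 members, 107 (96.4%) overlapped a LacZ region and 72 (64.9%) an hrp36 region, against 93.9% and 40.8% elsewhere. Of the 249 LacZ members, 81 (32.5%) overlapped an hrp36 region and 110 (44.2%) an hrp48 region, against 15.4% and 28.5% elsewhere. The LacZ list was the widest at these places, and 132 of its 249 members (53.0%) overlapped no region of the other lists. The like share was not counted elsewhere on the arms, where a smaller part of the LacZ regions overlapped each other list. It is thus no trait particular to the members.

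Median levels at the members differed more between the hrp36 and LacZ lists than between the 6 library groups within either. In the hrp36 list, the median over members of the authors' mean was 8.91 in hrp36 RNH+ and 9.36 in hrp36 RNH- libraries, 8.93 and 8.99 in hrp48 RNH+ and RNH- libraries, and 8.86 and 9.17 in LacZ RNH+ and RNH- libraries. In the hrp48 list, the medians were 8.42 and 8.57 in hrp36 RNH+ and RNH- libraries, 8.49 and 8.36 in hrp48 libraries, and 8.39 and 8.57 in LacZ libraries. In the LacZ list, they were 7.46 and 7.09 in hrp36 RNH+ and RNH- libraries, 7.61 and 6.92 in hrp48 libraries, and 7.40 and 7.32 in LacZ libraries. Among RNH- libraries, the median was lowest in hrp48 cells in each list. A level is a value per region and not per base, and members had a median length of 1057 bases in the hrp36 list, 735 in the hrp48 list and 529 in the LacZ list. Longer members had higher authors' base means, with Spearman's rho of 0.82, 0.86 and 0.81 in the 3 lists (n = 64, 111 and 249 regions that share libraries). Among the 5 places, the highest median RNH- level in a list's own cells was 9.99 at the end of 3L in the hrp36 list, 9.39 at the end of X in the hrp48 list and 8.41 at the end of X in the LacZ list.

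**Figure D1:**
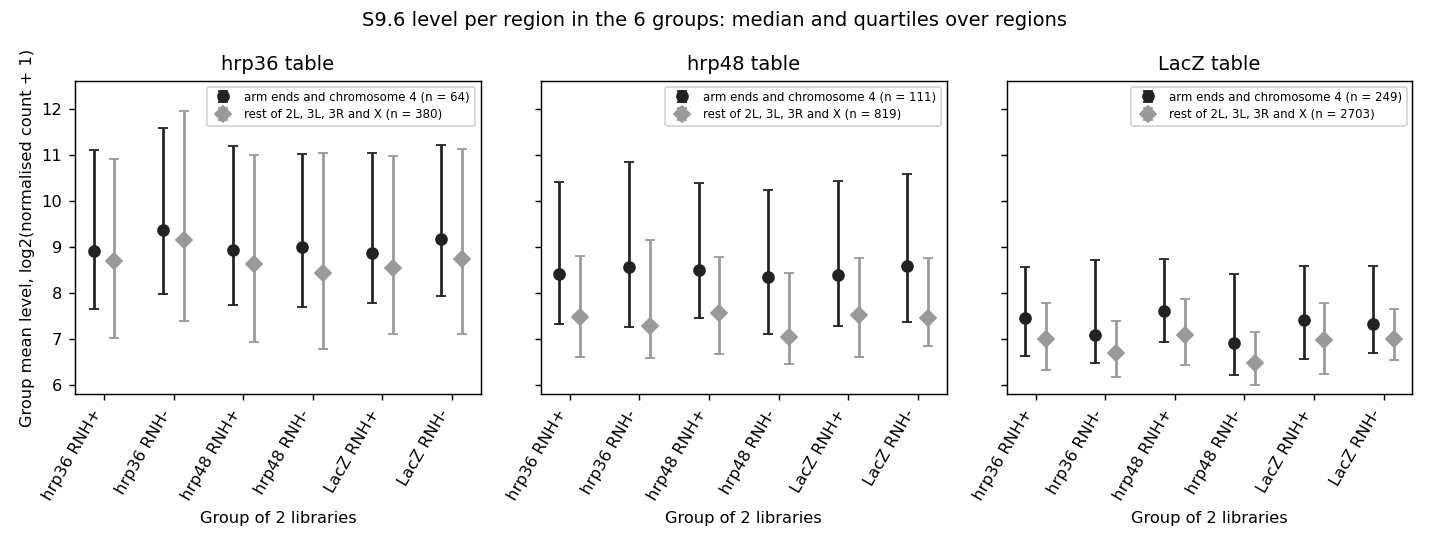
Authors' mean level, read as log2(normalised count + 1), in the 6 library groups, 1 panel per list, as the median (symbol) and quartiles (bars) over regions, with members in black and the rest of the 4 arms in grey. The members' medians lie between 8.86 and 9.36 in the hrp36 list and between 6.92 and 7.61 in the LacZ list, above those of the rest of the 4 arms. On the scaffolds named Het, not drawn here, the RNH- median in a list's own cells was 8.78, 7.82 and 7.35 in the hrp36, hrp48 and LacZ lists. At the members it was 9.36, 8.36 and 7.32, so the LacZ members did not stand above those scaffolds. Levels are per region and not per base.

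The first comparison asks whether signal at the members fell with RNase H, as a hybrid would. Most called members fell in hrp36 cells, most called members rose in hrp48 cells, and LacZ cells had both kinds. In the authors' deposited table for hrp36 cells, 22 of 64 members (34.4%) were lower in RNH+ and 1 (1.56%) was higher, at a DESeq2 adjusted p under 0.05. Over all regions of that table, 44.9% were lower and 5.34% higher, 50.2% in all. In the authors' deposited table for hrp48 cells, 5 of 111 members (4.50%) were lower in RNH+ and 18 (16.2%) were higher, against 44.6% and 5.71% of all its regions, 50.3% in all. In the authors' deposited table for LacZ cells, 21 of 249 members (8.43%) were lower and 12 (4.82%) higher, against 9.79% and 4.88% of all its regions, 14.7% in all. The LacZ shares were thus near those of the whole table.

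The rest of the same 4 arms gave shares close to those of the members. Elsewhere on 2L, 3L, 3R and X, 126 of 380 hrp36 regions (33.2%) were lower and 10 (2.63%) higher in the authors' deposited table. For hrp48 cells, 26 of 819 were lower and 131 higher in the authors' deposited table. For LacZ cells, 219 of 2703 (8.10%) were lower and 94 (3.48%) higher in the authors' deposited table. The difference between members and the rest of their arms was not tested, and these counts are no result particular to the arm ends.

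The median log2 fold change of RNH+ over RNH- over members was -0.47 in hrp36 cells, 0.09 in hrp48 cells and -0.03 in LacZ cells in the authors' deposited tables, where the median standard error was 0.32, 0.33 and 0.32. Over the regions elsewhere on the 4 arms it was -0.62, 0.24 and -0.09. The split of calls depends on where 0 is set. A Wald test on the deposited fold changes and standard errors, with Benjamini-Hochberg adjustment over each whole table, called 25 members lower and 1 higher in hrp36 cells, 7 and 20 in hrp48 cells, and 12 and 7 in LacZ cells. After subtracting the median fold change of the rest of the 4 arms, the same test called 9 lower and 11 higher in hrp36 cells, 23 and 10 in hrp48 cells, and 6 and 8 in LacZ cells. The excess of falls in hrp36 cells and of rises in hrp48 cells was thus not kept relative to the rest of the arms.

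**Figure D2:**
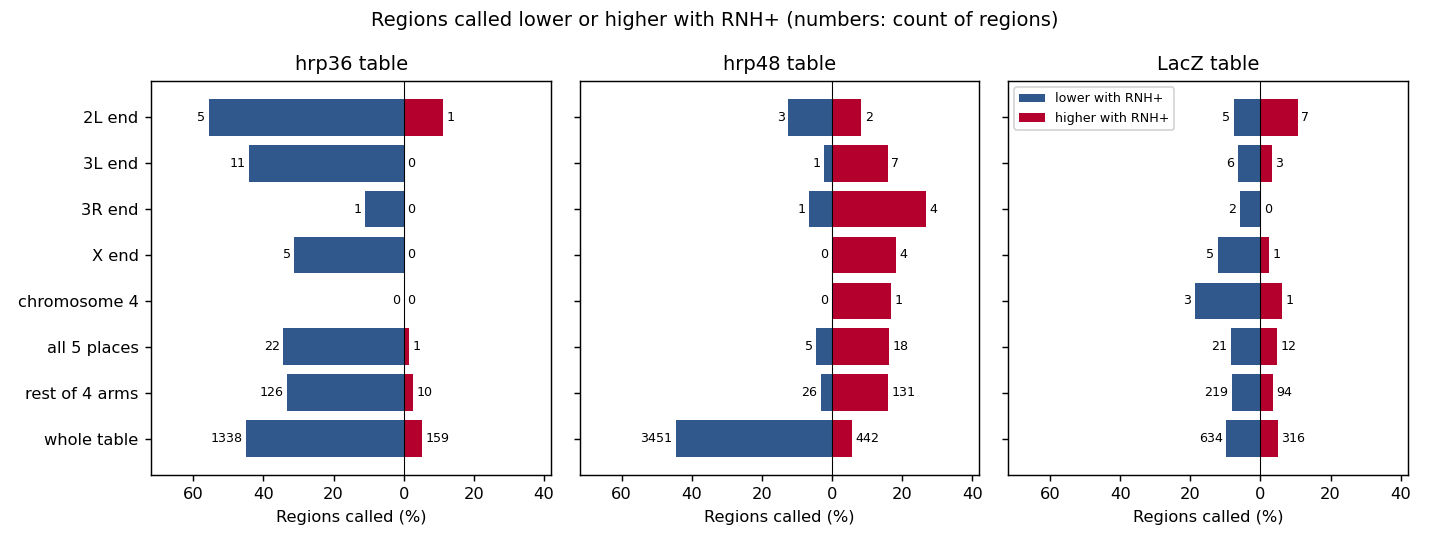
Percent of regions called lower (left of 0) or higher (right of 0) with RNH+ at the authors' adjusted p under 0.05, for the 5 places, for all members, for the rest of the 4 arms and for the whole table, with the number of regions beside each bar. Members and the rest of the 4 arms have bars of like length in each list, while the whole hrp48 table has many more lower regions (3451) than the members do (5).

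In hrp36 cells the falls lay at all 4 arm ends, with 5 of 9 regions lower at the end of 2L, 11 of 25 at 3L, 1 of 9 at 3R and 5 of 16 at X, and 0 of 5 on chromosome 4. The steepest fall was at 3L 22983001 to 22988228, a region of 5228 bases. There the authors' mean was 11.82 in hrp36 RNH+ and 14.06 in hrp36 RNH- libraries, 11.77 and 12.78 in hrp48 RNH+ and RNH- libraries, and 12.13 and 12.86 in LacZ RNH+ and RNH- libraries. The hrp36 RNH- mean stood above the other 5. Its log2 fold change in the authors' deposited table was -2.09 with a standard error of 0.50 (DESeq2 adjusted p = 0.000288). The neighbouring region at 3L 22988732 to 22989956 had 10.18 in hrp36 RNH+ and 12.32 in hrp36 RNH- libraries, and a fold change of -2.03 ± 0.46 (SE, DESeq2 adjusted p = 0.000157) in the authors' deposited table. Only a short gap separates the pair.

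At the end of X, the region from 22022350 to 22028621 was among the deepest, with an authors' base mean of 11641. Its authors' mean was 12.38 in hrp36 RNH+ and 14.56 in hrp36 RNH- libraries, 12.26 and 13.29 in hrp48 RNH+ and RNH- libraries, and 12.65 and 13.36 in LacZ RNH+ and RNH- libraries. RNH+ means were below RNH- means in all 3 cell groups, and the gap was widest in hrp36 cells. For hrp36 cells, its fold change in the authors' deposited table was -2.03 with a standard error of 0.50 (DESeq2 adjusted p = 0.000466). Farther in, 2 adjacent regions of X, 22173368 to 22174617 and 22175080 to 22176663, fell by 1.89 and by 1.65 on the log2 scale in the authors' deposited table (DESeq2 adjusted p = 0.000161 and 0.000668).

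The regions at 2L 22201395 to 22206560, 2L 23004528 to 23009700 and 3L 24235600 to 24240774 were alike in length, at 5166, 5173 and 5175 bases, and alike in profile. The first had 11.95 in hrp36 RNH+ and 13.90 in hrp36 RNH- libraries, 12.13 and 12.97 in hrp48 libraries, and 12.26 and 13.11 in LacZ libraries, as authors' means. The second had 11.44 and 13.31 in hrp36 RNH+ and RNH- libraries, 11.68 and 12.51 in hrp48 libraries, and 11.62 and 12.63 in LacZ libraries. The last of them had 11.65 and 13.62 in hrp36 RNH+ and RNH- libraries, 11.89 and 12.80 in hrp48 libraries, and 11.85 and 12.92 in LacZ libraries. In each, the hrp36 RNH- mean was the highest and the 3 RNH+ means lay close together. For hrp36 cells the authors' deposited table gives log2 fold changes of -1.79, -1.72 and -1.80 (DESeq2 adjusted p = 0.000517, 0.000316 and 0.000188).

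A shorter region at 2L 22308212 to 22309291 had the smallest adjusted p of the hrp36 members, with a fold change of -1.31 ± 0.28 (SE, DESeq2 adjusted p = 4.73e-05) in the authors' deposited table. It differed from the long regions in that its RNH- means were close in hrp36 and LacZ cells. The authors' mean there was 7.26 in hrp36 RNH+ and 8.65 in hrp36 RNH- libraries, 7.66 and 8.31 in hrp48 libraries, and 7.68 and 8.61 in LacZ libraries. Of the 14 hrp36 members with a fold change above 0, the 1 that passed the test, at 2L 21984252 to 21984606, had 7.51 in hrp36 RNH+ and 6.59 in hrp36 RNH- libraries. It had a fold change of 0.87 ± 0.30 (SE, DESeq2 adjusted p = 0.0153) in the authors' deposited table. The LacZ region over the same place rose too, by 0.86 in the authors' deposited table (DESeq2 adjusted p = 0.0119).

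Long regions made up 9 of the 22 falls in hrp36 cells. Of the 64 hrp36 members, 13 were 4000 bases or longer, and the authors' deposited table has 9 of these lower in RNH+ and 0 higher. Of the other 51, 13 were lower and 1 was higher there. The hrp36 RNH- mean exceeded the LacZ RNH- mean at 13 of the 13, by 0.32 to 1.20 with a median of 0.68. In the whole hrp36 list, whose choice favours such regions, it did so at 2785 of 2980 (93.5%). In the other lists it did so at 8 of 8 long LacZ members and 6 of 6 long hrp48 members, with medians of 0.77 and 0.81. The long members of all 3 lists lie at 13 places. At the long hrp36 members, the hrp36 RNH+ mean was below the LacZ RNH+ mean at 13 of 13, with a median difference of -0.20. There the hrp48 RNH- mean was below the LacZ RNH- mean at 13 of 13, with a median difference of -0.12. This was not particular to length, as it was below at 60 of all 64 hrp36 members. Among those under 4000 bases the median hrp48 minus LacZ difference was -0.23. Among the hrp36 members under 4000 bases the median hrp36 minus LacZ difference in RNH- libraries was 0.13. The long hrp36 members were also deep, with a median authors' base mean of 6851, and length and depth were not separated here.

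The same was seen in long regions elsewhere on the 4 arms, and the difference between the sets was not tested. There the hrp36 RNH- mean exceeded the LacZ RNH- mean at 84 of 84 long regions, with a median of 0.70, and 56 of the 84 were lower in RNH+ in the authors' deposited table for hrp36 cells. Lengths recurred: 4 of the 13 long hrp36 members and 35 of the 84 others measured from 5100 to under 5300 bases. Whether regions of like length are copies of a repeat that share reads was not tested.

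**Figure D3:**
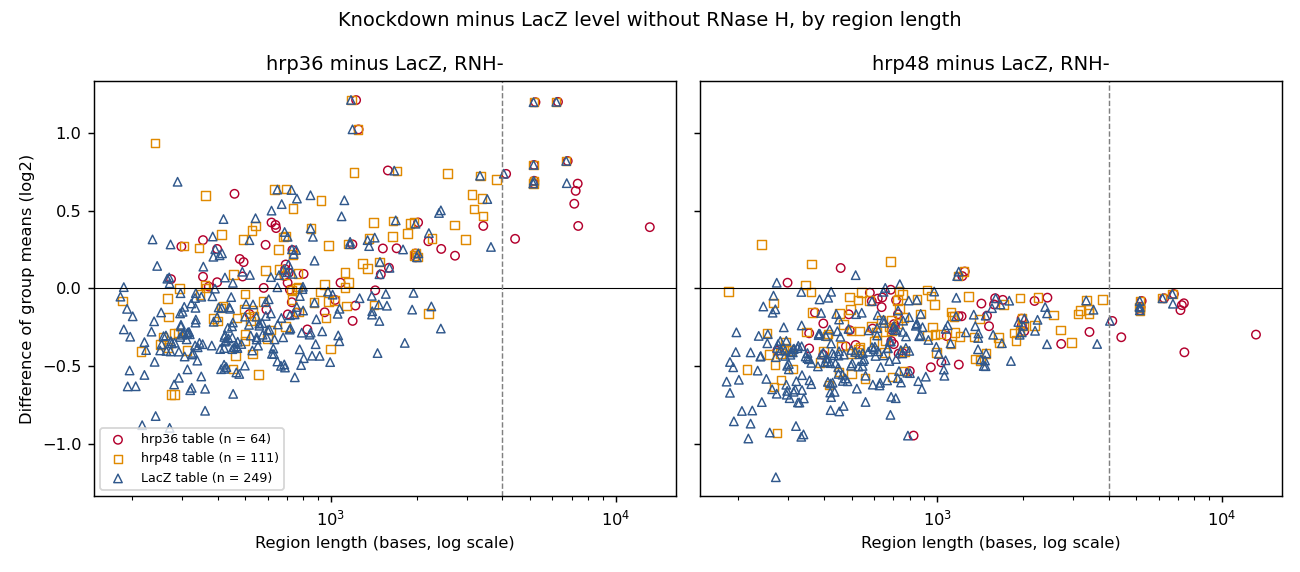
Difference of the authors' RNH- means, hrp36 minus LacZ (left) and hrp48 minus LacZ (right), on the log2 scale against region length in bases on a log axis, 1 symbol per member and list, with a dashed line at 4000 bases. Right of the line, all 13 hrp36 members lie above 0 in the left panel (0.32 to 1.20) and below 0 in the right panel. Of all 64 hrp36 members, 52 lie above 0 in the left panel and 60 below 0 in the right panel.

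The longest member, at X 21558865 to 21572049, spanned 13185 bases and did not pass the test. Its authors' mean was 13.08 in hrp36 RNH+ and 13.67 in hrp36 RNH- libraries, 13.15 and 12.98 in hrp48 libraries, and 13.14 and 13.28 in LacZ libraries, and its fold change was -0.57 ± 0.40 (SE, DESeq2 adjusted p = 0.287) in the authors' deposited table. Next to it the hrp36 list has a second region, 21572254 to 21575681, with a fold change of -0.68 (DESeq2 adjusted p = 0.145) in the authors' deposited table. Over both, from 21558449 to 21575678, the LacZ list has 11 regions within 17.2 kb, and the hrp48 list has 8 there. This was the run of most members at gaps under 5 kb in the LacZ and hrp48 lists. Of the 11 LacZ regions, 1, at 21574992 to 21575678 and so outside the longest member, was lower with RNH+ and 0 were higher in the authors' deposited table, and of the 8 hrp48 regions 0 were called by DESeq2, with 0 at an unadjusted p under 0.05. The median fold change over the run was 0.19 in hrp48 cells and -0.03 in LacZ cells in the authors' deposited tables. The deepest member lay at 3R 828103 to 834887, with a base mean of 11797. The authors' mean there was 12.91 in hrp36 RNH+ and 14.29 in hrp36 RNH- libraries, 12.95 and 13.43 in hrp48 libraries, and 13.19 and 13.47 in LacZ libraries. The authors' deposited table gives it a fold change of -1.30 (DESeq2 adjusted p = 0.0167). It was the only one of the 9 hrp36 members of the 3R end to pass the test, while all 9 had a fold change below 0.

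In hrp48 cells the rises lay at all 5 places, with 2 at the end of 2L, 7 at 3L, 4 at 3R, 4 at X and 1 on chromosome 4, and they measured 269 to 1029 bases. The steepest, at 3L 23267265 to 23267821, had 8.73 in hrp48 RNH+ and 7.08 in hrp48 RNH- libraries, with 8.71 and 7.11 in hrp36 RNH+ and RNH- libraries and 8.47 and 7.66 in LacZ libraries, as authors' means. The RNH+ means were above the RNH- means in all 3 cell groups, and LacZ cells had the smallest gap. For hrp48 cells, it had in the authors' deposited table a fold change of 1.55 ± 0.30 (SE, DESeq2 adjusted p = 3.39e-05). At 2L 22331321 to 22331772 the authors' mean was 8.18 in hrp48 RNH+ and 6.57 in hrp48 RNH- libraries, 8.19 and 6.58 in hrp36 libraries, and 8.24 and 7.10 in LacZ libraries. The fold change there was 1.53 ± 0.28 (SE, DESeq2 adjusted p = 1.4e-05) in the authors' deposited table for hrp48 cells. This place rose in LacZ cells as well, where the region at 2L 22331267 to 22331742 had a fold change of 1.06 (DESeq2 adjusted p = 0.00136) in the authors' deposited table.

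Other hrp48 rises at the end of 3L were at 24207225 to 24207498, 23688692 to 23689108 and 24223211 to 24223479. Their log2 fold changes were 1.48, 1.35 and 1.33 in the authors' deposited table (DESeq2 adjusted p = 0.00117, 7.42e-05 and 0.000859). In the first, the authors' mean was 7.17 in hrp48 RNH+ and 5.52 in hrp48 RNH- libraries, 7.52 and 5.77 in hrp36 libraries, and 7.16 and 6.45 in LacZ libraries. Again RNH+ stood above RNH- in each cell group.

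The 5 falls in hrp48 cells were 3 regions of 2L, 1 of 3L and 1 of 3R. The steepest was at 3R 773605 to 773856, a shallow region with a base mean of 45.9. There the authors' mean was 3.59 in hrp48 RNH+ and 6.05 in hrp48 RNH- libraries, 4.18 and 5.98 in hrp36 libraries, and 4.77 and 6.34 in LacZ libraries. RNH+ was lower than RNH- in all 3 cell groups. It fell by 1.91 ± 0.49 (SE, DESeq2 adjusted p = 0.00232) in the authors' deposited table for hrp48 cells, and the LacZ region over the same place fell by 1.23 (DESeq2 adjusted p = 0.0284). The hrp36 list has no region there.

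In LacZ cells the steepest fall among members was on chromosome 4, at 285840 to 286291. Its authors' mean was 4.47 in hrp36 RNH+ and 6.40 in hrp36 RNH- libraries, 5.21 and 6.42 in hrp48 libraries, and 4.50 and 6.62 in LacZ libraries. All 3 cell groups had lower RNH+ than RNH- means. The fold change was -1.88 ± 0.39 (SE, DESeq2 adjusted p = 9.88e-05) in the authors' deposited table for LacZ cells. At 3L 22944551 to 22945183 the authors' mean was 6.56 in hrp36 RNH+ and 6.99 in hrp36 RNH- libraries, 6.94 and 6.82 in hrp48 libraries, and 5.70 and 7.32 in LacZ libraries. Here LacZ cells stood apart with the lowest RNH+ mean, and the fold change was -1.44 (DESeq2 adjusted p = 0.000195) in the authors' deposited table. A further fall at 3L 24503974 to 24504750 measured -1.28 (DESeq2 adjusted p = 0.000709) in the authors' deposited table.

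The LacZ rises were led by 2L 22330662 to 22330882, with a fold change of 1.24 ± 0.29 (SE, DESeq2 adjusted p = 0.000364) in the authors' deposited table. It had 7.52 in hrp36 RNH+ and 6.07 in hrp36 RNH- libraries, 7.82 and 5.75 in hrp48 libraries, and 7.93 and 6.62 in LacZ libraries, as authors' means. It lies a short way from the region of 2L that rose in hrp48 cells. After it came 2L 21848520 to 21848976, at 1.12, the region at 2L 22331267 to 22331742 given above, at 1.06, and X 21812103 to 21812817, at 1.03, in the authors' deposited table (DESeq2 adjusted p = 0.0022, 0.00136 and 0.00295). At the first and last of these, each cell group had a higher RNH+ than RNH- mean.

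The regions called in 1 cell group mostly moved the same way in the group means of the others, whose libraries were not those compared in the call. Whether the authors fitted all libraries together was not given in the sources used here, so the calls may not be independent of the other libraries. Of the 22 hrp36 falls, RNH+ was below RNH- at 22 in hrp48 cells, with a median difference of -0.64, and at 22 in LacZ cells, with a median of -0.68. Of the 18 hrp48 rises, RNH+ was above RNH- at 17 in hrp36 cells and at 18 in LacZ cells, with medians of 0.68 and 0.51. Of the 5 hrp48 falls, 5 were below 0 in each of the other cell groups. Of the 21 LacZ falls, 18 were below 0 in hrp36 cells and 14 in hrp48 cells, and of the 12 LacZ rises 11 and 12 were above 0. The members without a call give the background. In the hrp36 list, 11 of the 41 uncalled members were below 0 in hrp48 cells and 21 in LacZ cells. In the hrp48 list, 71 of the 88 uncalled members were below 0 in hrp36 cells and 58 in LacZ cells, so values below 0 in the other cells were common there without a call. In the LacZ list, 123 of the 216 uncalled members were above 0 in hrp36 cells and 169 in hrp48 cells, so rises in hrp48 cells were common there without a call.

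**Figure D4:**
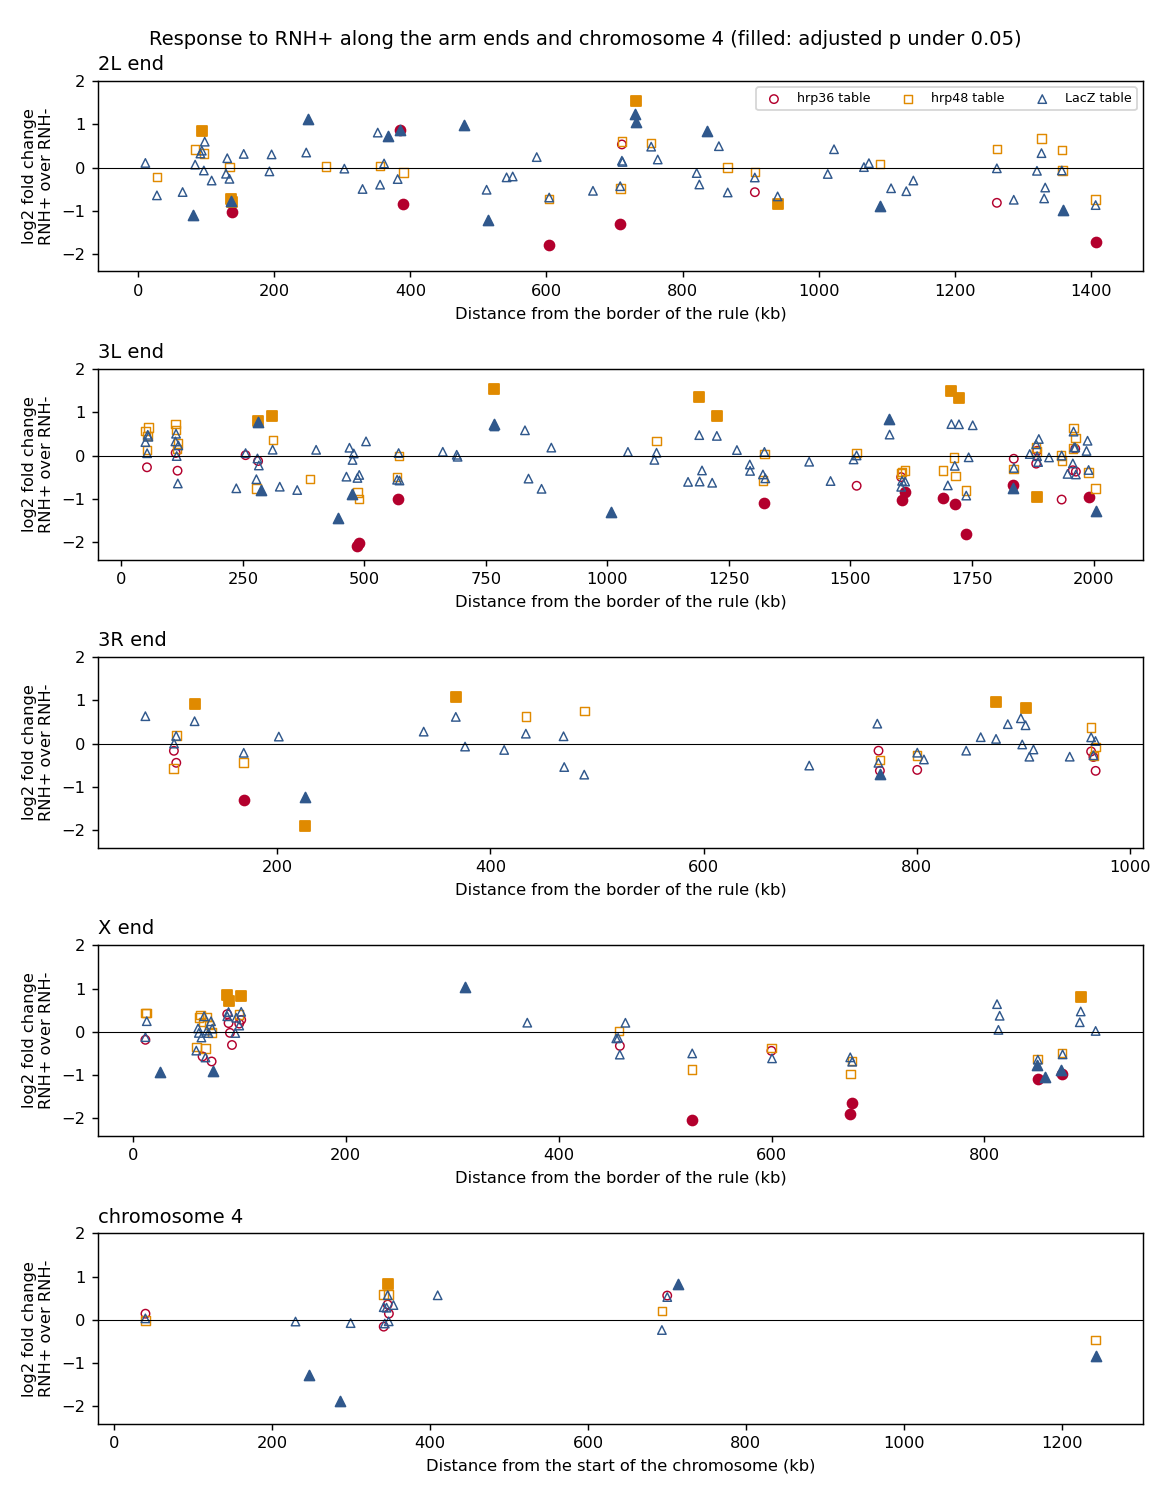
Authors' log2 fold change of RNH+ over RNH- at each member against its distance in kb from the border of its arm end, or from the start of chromosome 4, 1 panel per place, with filled symbols for an adjusted p under 0.05. The hrp36 falls are spread along the arm ends and reach -2.09, and 18 of the 23 filled hrp48 squares lie above 0.

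The second comparison asks how the knockdown groups differ from LacZ cells before RNase H. These are differences between the authors' means, which have no spread of their own here, so no test was made. In RNH- libraries the hrp36 mean exceeded the LacZ mean at 52 of 64 hrp36 members, with a median difference of 0.24, at 65 of 111 hrp48 members, with a median of 0.09, and at 75 of 249 LacZ members, with a median of -0.19. The direction thus differed between lists, and each list was drawn up from its own cells. The hrp48 mean exceeded the LacZ mean at 4 of 64, 6 of 111 and 6 of 249 members of the hrp36, hrp48 and LacZ lists, with medians of -0.19, -0.25 and -0.40. At the members it lay lower even in the list drawn from hrp48 cells, though that list as a whole went the other way. Over the whole hrp48 list the median level was 7.06 in hrp48 RNH- and 6.13 in LacZ RNH- libraries. In RNH+ libraries the medians of both knockdown groups lay between -0.12 and 0.11 in the 3 lists.

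Elsewhere on the 4 arms the hrp36 minus LacZ medians in RNH- libraries were 0.41, -0.15 and -0.32 in the hrp36, hrp48 and LacZ lists, and the hrp48 minus LacZ medians were -0.26, -0.36 and -0.49. Both knockdown groups had the same sign there as at the members, except hrp36 in the hrp48 list. Relative to these medians of the other regions, the members' median was -0.17, 0.25 and 0.13 for hrp36 minus LacZ in the hrp36, hrp48 and LacZ lists, and 0.078, 0.11 and 0.084 for hrp48 minus LacZ. All but the hrp36 minus LacZ median of the hrp48 list changed sign, so the directions above hold only for the values as deposited. Among the 5 places of the LacZ list, the end of X was the only one with a median hrp36 minus LacZ difference above 0, at 0.12, and the end of 2L was the lowest, at -0.31. The highest hrp36 minus LacZ differences in RNH- libraries among hrp36 members were 1.21 at 3L 22988732 to 22989956, 1.20 at X 22022350 to 22028621 and 1.20 at 3L 22983001 to 22988228. These 3 were also among the steepest falls with RNase H, and both values take in the same hrp36 RNH- mean.

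Places listed in all 3 tables allow the RNase H response to be set side by side between cells. Matched regions share at least 1 base and can cover different stretches. For example, the LacZ region at 3L 24383168 to 24384725 was set against the hrp48 region at 24384128 to 24384813. At 53 such places with members matched across the tables, the median log2 fold change was -0.60 in hrp36 cells, -0.27 in hrp48 cells and -0.18 in LacZ cells in the authors' deposited tables. The hrp36 value was the lowest of the 3 at 42 of the 53, and the hrp48 value was the highest at 34. The fold change was below 0 in all 3 cell groups at 26 places. At 1 place the regions were lower with RNH+ in all 3 tables, at 2 they were called in 2 tables, at 24 in 1 and at 26 in none. Such counts were not made for places outside the members, so they show no trait particular to the arm ends. Over all regions matched in pairs, the hrp36 fold change was below the LacZ one at 1815 of 2165. It was below the hrp48 one at 2214 of 2363.

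The place lower in all 3 was 2L 21735231 to 21737661, by its LacZ borders. That LacZ region had 8.86 in hrp36 RNH+ and 9.62 in hrp36 RNH- libraries, 8.99 and 9.52 in hrp48 libraries, and 9.07 and 9.88 in LacZ libraries, as authors' means. RNH+ was lower in each. The hrp36 region covers a shorter stretch of it, 21737027 to 21737619, and the hrp48 list has 2 pieces, 21735598 to 21736592 and 21737068 to 21737600. In the authors' deposited tables the log2 fold change was -1.02 for the hrp36 piece, -0.73 and -0.80 for the hrp48 pieces and -0.77 for the LacZ region (DESeq2 adjusted p = 0.00244, 0.0254, 0.0205 and 0.0314).

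**Figure D5:**
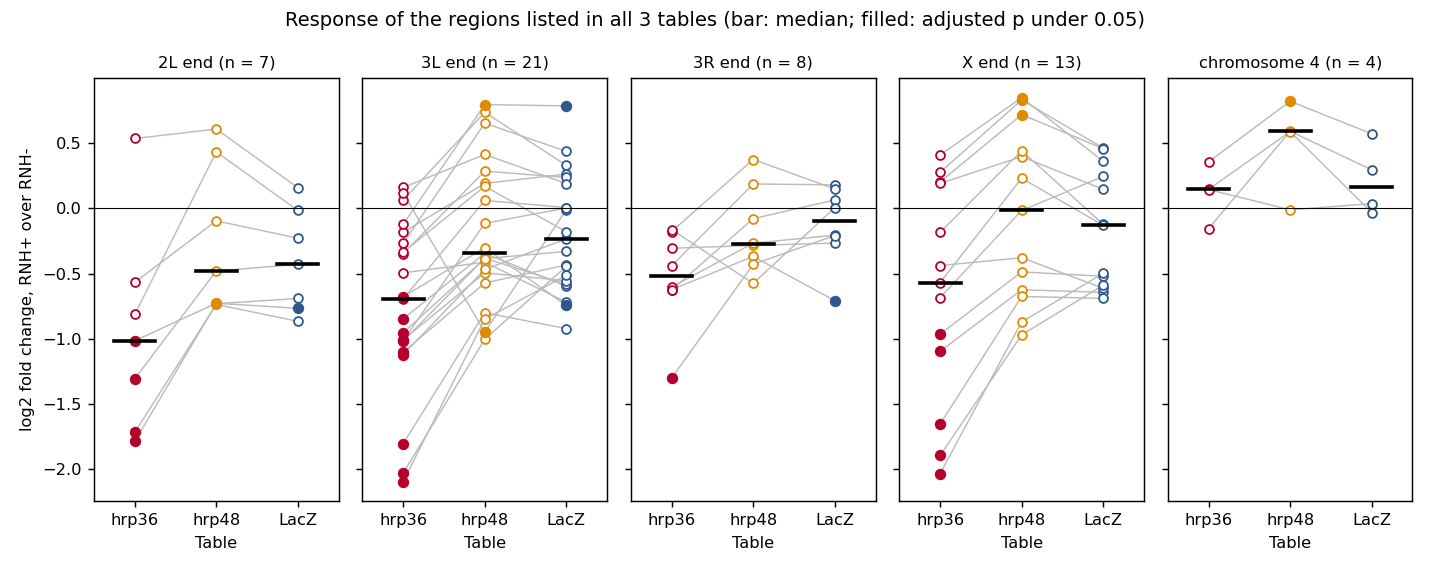
Authors' log2 fold change of RNH+ over RNH- in hrp36, hrp48 and LacZ cells at the 53 places listed in all 3 tables, 1 panel per arm end and 1 for chromosome 4, with a grey line joining the values of 1 place, a bar at the median and filled symbols for an adjusted p under 0.05. The hrp36 value is the lowest of the 3 at 42 places, and the overall medians are -0.60 in hrp36, -0.27 in hrp48 and -0.18 in LacZ cells.

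No member passed a test of the difference in response between cells. The difference of 2 authors' DESeq2 fold changes was tested against both standard errors (Wald test, normal approximation, Benjamini-Hochberg over all matched regions). Between hrp36 and LacZ cells, 0 of 60 matched members passed the Wald test at an adjusted p under 0.05, against 0.0924% of all 2165 matched regions. At an unadjusted p under 0.05 there were 6 members, all lower in hrp36 cells. The median difference was -0.37, and 44 of the 60 were below 0. Over all matched regions the median was -0.46, with 1815 of 2165 below 0 and 337 at an unadjusted p under 0.05. The shift is thus no trait particular to the members. The largest difference among members, -1.58 ± 0.66 (SE) at 3L 22988732 to 22989956, had an adjusted p of 0.294 by the Wald test and a 95% interval from -2.87 to -0.30.

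Between hrp48 and LacZ cells, 0 of 101 matched members passed the Wald test, against 0% of all 3187 matched regions, and 7 had an unadjusted p under 0.05, of which 6 were higher in hrp48 cells. The median difference was 0.23, and 76 of the 101 were above 0. Over all matched regions the median was 0.18, with 2331 of 3187 above 0 and 119 at an unadjusted p under 0.05. Among members the largest was 1.47 ± 0.52 (SE) at 3R 511826 to 512091, with an adjusted p of 0.902 by the Wald test. Between hrp36 and hrp48 cells, 0 of 56 matched members passed the Wald test, against 0% of all 2363 matched regions. There were 5 at an unadjusted p under 0.05, 4 of them lower in hrp36 cells, and the median difference was -0.56, with 53 of the 56 below 0. Over all matched regions the median was -0.64, with 2214 of 2363 below 0 and 288 at an unadjusted p under 0.05. The test had little power at 1 log2 unit, a size above these medians. On simulated differences of 1 log2 unit it found 21% between hrp36 and LacZ cells, 9% between hrp48 and LacZ cells and 16% between hrp36 and hrp48 cells. At 2 log2 units it found 84%, 74% and 60% in the same order. Differences under 1 unit were not simulated, and the number of changed regions was fixed in advance.

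Chromosome 4 gives few points, with 5 members in the hrp36 list, 6 in the hrp48 list and 16 in the LacZ list, and its difference from the arm ends was not tested. The median log2 fold change there was 0.14 in hrp36 cells, 0.40 in hrp48 cells and 0.00 in LacZ cells in the authors' deposited tables. Of the 5 hrp36 regions DESeq2 called 0, with 0 at an unadjusted p under 0.05, and the highest of the 5 was 0.56 ± 0.31 (SE, adjusted p = 0.165) at 700165 to 700519 in the authors' deposited table. A cluster of regions lay at 341004 to 348466, where the LacZ list has 5 regions within 7.46 kb. Its deepest, at 346995 to 348466, had 11.06 in hrp36 RNH+ and 10.86 in hrp36 RNH- libraries, 11.14 and 10.50 in hrp48 libraries, and 10.93 and 10.97 in LacZ libraries, as authors' means. RNH+ and RNH- were close in LacZ cells and farthest apart in hrp48 cells. The hrp48 region at 346264 to 346717 rose by 0.82 ± 0.30 (SE, DESeq2 adjusted p = 0.024) in the authors' deposited table, with 9.90 in hrp48 RNH+ and 9.04 in hrp48 RNH- libraries.

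Outside that cluster, LacZ cells had 3 falls and 1 rise on chromosome 4. Beside the fall at 285840 they were at 247314 to 247500, 1242232 to 1243207 and 713775 to 714008. In the authors' deposited table their log2 fold changes were -1.27, -0.83 and 0.83 (DESeq2 adjusted p = 0.00477, 0.0174 and 0.0186). At the first, the authors' mean was 5.96 in hrp36 RNH+ and 5.94 in hrp36 RNH- libraries, 4.98 and 5.73 in hrp48 libraries, and 4.85 and 6.20 in LacZ libraries. There RNH+ was below RNH- in hrp48 and LacZ cells and level with it in hrp36 cells. At the second, it was 7.26 and 8.12 in hrp36 RNH+ and RNH- libraries, 7.69 and 8.12 in hrp48 libraries, and 7.22 and 8.14 in LacZ libraries. The RNH- means were almost equal across cell groups, and RNH+ was lower in each.

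The borders of the arm ends are rounded positions, and values did not shift in 1 direction across them. In the hrp36 list the regions just inside had log2 fold changes of -1.02 on 2L, -0.27 on 3L, -0.16 on 3R and -0.18 on X, against -0.91, -0.51, 0.70 and -1.76 just outside, in the authors' deposited table. In the hrp48 list they were -0.22, 0.57, -0.58 and 0.44 just inside, against -0.44, 0.54, 0.27 and -0.71 just outside, in the authors' deposited table. In the LacZ list they were 0.11, 0.31, 0.64 and -0.12 just inside, against -0.75, 0.33, -0.73 and -0.68 just outside, in the authors' deposited table. The nearest outside region was up to 401 kb away, on 3L in the hrp36 list.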

How the data were processed

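Libraries were made from phenol-chloroform extracted, sonicated DNA of S2 cells, per the labels' protocols. The genome build was dm3 and the tools were Bowtie2 2.2.2, MACS 1.4.2 and DESeq2, with no roles or order, per the submitters' processing notes. The authors deposited 3 tables of regions. Their 6 group columns hold log2 values that the authors deposited as group means. They were read as means of log2(normalised count + 1). Averaged over the 6 groups, the back-transformed means never exceeded the base mean, while means of single groups did at some regions. This form requires the former if the base mean covers the same libraries, but that does not single it out from other log forms. The base mean is a normalised signal that the authors deposited per region. The log2 fold change (shrunken, by the tables' name), its standard error, the Wald score in the stat column, the p-value and the adjusted p-value are also as the authors deposited them. Adjusted p-values differed by up to 0.138 from Benjamini-Hochberg values recomputed per table, with their making not given in the sources used here.

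Both members and lists were chosen with earlier results of these data known. Calls use the authors' adjusted p under 0.05. Regions of different tables sharing 1 base or more were paired (bedtools 2.31.1) where each was the other's best match. A Wald statistic, a normal approximation, served to test their differences, with Benjamini-Hochberg adjustment over all matched regions, checked on simulated data. The calculations used Python 3.11.15 with pandas 2.3.3 and SciPy 1.17.1. Regions named in the text are, per table and place, those of smallest adjusted p in each direction and of highest base mean, those listed in all 3 tables with the smallest p, and those with the largest knockdown minus LacZ differences. Others, such as the longest region and those on chromosome 4, were named after their values were seen. No values per library were used, so counting error and the spread of the group means are not given.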

Additional observations from a re-analysis of the deposited data

How the results depend on the processing

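No paired analysis was possible because the tables hold group means only, and leaving out each library in turn could not be done for the same reason. Depth per library is unknown, and the tables give no measure of how reads of repeats were placed. Counts of called members moved with the threshold. In hrp36 cells, 22 lower members became 14 at an adjusted p under 0.01, 9 with fold changes centred on the rest of the 4 arms and 13 without regions of 4000 bases or more, a setting chosen after seeing the data. The 1 higher member became 11 when centred, and 0 at the 0.01 threshold, with an absolute log2 fold change of at least 1, with base means no lower than the table's median, or with narrower borders. In hrp48 cells, 5 lower members became 10 at a threshold of 0.1, 2 at 0.01, 1 with the minimum fold change, 23 when centred and 2 with narrower borders, and 18 higher members became 7 at 0.01, 6 with the minimum fold change, 10 when centred and 10 with narrower borders. In LacZ cells, 21 lower members became 32 at 0.1, 9 at 0.01, 12 by a recomputed Benjamini-Hochberg adjustment, 12 by the Wald test, 6 when centred, 9 with the minimum fold change, 5 with the base mean filter and 13 with narrower borders. The 12 higher members there became 5 at 0.01, 4 with the minimum fold change and 7 with each of the recomputed adjustment, the Wald test, the base mean filter and narrower borders.

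With the base mean filter, the median levels in the hrp36 list were 10.31 and 11.01 in hrp36 RNH+ and RNH- libraries, 10.30 and 10.44 in hrp48 libraries, and 10.58 and 10.88 in LacZ libraries. In the LacZ list they were 8.59 and 8.77 in hrp36 RNH+ and RNH- libraries, 8.75 and 8.47 in hrp48 libraries, and 8.61 and 8.62 in LacZ libraries. Centred on the rest of the 4 arms, the median hrp36 minus LacZ difference in RNH- libraries was -0.17 in the hrp36 list, against 0.24 uncentred. The median hrp48 minus LacZ difference became 0.11 in the hrp48 list, against -0.25, and 0.084 in the LacZ list, against -0.40. With a reciprocal overlap of 50%, 46 hrp48 members overlapped an hrp36 region, against 72, and 50 LacZ members overlapped an hrp36 region, against 81. The centred hrp36 minus LacZ median was 0.13 in the LacZ list, against -0.19, and the centred hrp48 minus LacZ median was 0.078 in the hrp36 list, against -0.19, so 5 of these 6 RNH- medians changed sign. Centring also turned the larger number of calls from lower to higher in hrp36 and LacZ cells and from higher to lower in hrp48 cells. Stricter thresholds and filters lower counts by construction, a threshold of 0.1 raises them, and the cause of the other shifts was not tested.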
